A study of Mus musculus with 2 samples.

Results

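The sine oculis homeobox genes and the eyes absent genes of the mouse, written Six2 to Six6 and Eya1 to Eya4, were examined as 9 members, Six2, Six3, Six4, Six5 and Six6 on one side and Eya1, Eya2, Eya3 and Eya4 on the other, out of 21938 protein-coding genes in the GENCODE M21 annotation. They were chosen by gene name. For each member every DNase-seq peak and hotspot was taken that lay in the gene body or within 100 kb of either end, on mm10. The material was whole embryos of strain B6NCrl at embryonic day 10.5, with males and females pooled, in 2 biological replicates that form a single group and carry the same donor label. Neither treatment nor genotype was varied, so the study holds no contrast between conditions. The comparisons here are between members, between the sine oculis and Eya windows, between members and all coding genes, and between the replicates.

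DNase I cuts DNA where nucleosomes are displaced, so a peak marks a stretch of accessible chromatin, such as a promoter, an enhancer or an insulator. Sine oculis proteins are homeodomain transcription factors. Eya proteins do not bind DNA on their own: they act as coactivators held on DNA by sine oculis partners, and they also carry a phosphatase domain. Together with Pax and Dach proteins they form a network that acts in the formation of the eye, ear, kidney, muscle and cranial placodes. In a whole embryo a peak can come from any of the tissues present, and few cells with a very open site cannot be told apart from many cells with a weakly open one.

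The members lie at 7 places on mm10. Six3 (chr17:85613608-85629302, plus strand) and Six2 (chr17:85684277-85688274, minus strand) are neighbours. So are Six6 (chr12:72939892-72944899, plus strand) and Six4 (chr12:73099609-73113456, minus strand), with other genes between them. Six5 (chr7:19094594-19098549, plus strand) stands in a gene-dense stretch. The Eya genes lie apart, Eya1 at chr1:14168954-14310235 on the minus strand, Eya2 at chr2:165595032-165771727 on the plus strand, Eya3 at chr4:132638987-132724765 on the plus strand and Eya4 at chr10:23102963-23350786 on the minus strand.

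All 9 members had a promoter peak in both replicates, meaning a peak within 1 kb of an annotated transcription start site (TSS). Among all coding genes the share was 69.7%, or 15300 of 21938. With 5 and 4 genes that are not replicates of each other, no test was made of this count. The sequences under the promoter peaks are shown first, because they differ in how many CG dinucleotides they hold. Each line gives the bases of the strongest replicate 1 promoter peak that lie outside annotated exons, 5′ to 3′ in the direction of transcription, with CG in capitals.
Six2, chr17:85688296-85688445, minus strand: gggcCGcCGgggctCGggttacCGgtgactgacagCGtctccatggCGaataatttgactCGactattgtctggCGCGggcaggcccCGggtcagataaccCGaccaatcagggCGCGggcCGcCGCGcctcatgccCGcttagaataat
Six4, chr12:73113457-73113525, minus strand: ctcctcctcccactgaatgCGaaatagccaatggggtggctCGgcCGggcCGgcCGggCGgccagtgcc
Six3, chr17:85620676-85620789, plus strand: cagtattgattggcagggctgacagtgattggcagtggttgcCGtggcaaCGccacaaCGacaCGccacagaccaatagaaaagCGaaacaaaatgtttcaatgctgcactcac
Eya3, chr4:132638896-132638986, plus strand: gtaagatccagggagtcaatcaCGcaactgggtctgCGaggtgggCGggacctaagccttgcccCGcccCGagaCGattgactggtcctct
Eya4, chr10:23350787-23350905, minus strand: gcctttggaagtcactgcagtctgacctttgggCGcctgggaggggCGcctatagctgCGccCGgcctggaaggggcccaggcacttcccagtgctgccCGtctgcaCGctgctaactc
The Six2 peak held 17 CG dinucleotides in its 150 bp, and the Six3 peak of the same width held 5. The strongest promoter peak of Eya1, which lay inside an annotated exon and is not printed, held 18.

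The peaks with the highest strength outside promoters are shown next, because they include the strongest element between Six3 and Six2 and the elements in and beside the Eya genes. A distal peak lies over 1 kb from any TSS of any annotated gene, and a shared peak is a replicate 1 peak that overlaps a replicate 2 peak by 1 bp or more. Capitals mark 4 motifs on either strand. These are CAGCTG, an E-box bound by many basic helix-loop-helix factors, TGATAC, a sequence type bound by SIX3 and SIX6, and the forms CCNNNAGGG and CCANNAGNT of the core that the insulator protein CTCF recognises. CCANNAGNT was added to the search after the sequences had been seen. Each sequence is printed in the direction of transcription of the gene named first.
Six3 and Six2, strongest distal peak of both windows, chr17:85665076-85665225, plus strand: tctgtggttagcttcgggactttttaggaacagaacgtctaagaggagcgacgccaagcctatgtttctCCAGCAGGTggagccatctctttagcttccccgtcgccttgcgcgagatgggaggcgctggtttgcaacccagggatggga
Six3, second distal peak, chr17:85645856-85646005, plus strand: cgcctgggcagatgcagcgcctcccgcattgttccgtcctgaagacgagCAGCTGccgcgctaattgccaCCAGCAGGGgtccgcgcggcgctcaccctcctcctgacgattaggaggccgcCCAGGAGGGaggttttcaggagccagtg
Six2, second distal peak, chr17:85748796-85748945, minus strand: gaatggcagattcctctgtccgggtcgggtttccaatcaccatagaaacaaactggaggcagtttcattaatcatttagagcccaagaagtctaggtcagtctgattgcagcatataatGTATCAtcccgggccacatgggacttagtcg
Eya1, strongest distal peak, intron, chr1:14185996-14186145, minus strand: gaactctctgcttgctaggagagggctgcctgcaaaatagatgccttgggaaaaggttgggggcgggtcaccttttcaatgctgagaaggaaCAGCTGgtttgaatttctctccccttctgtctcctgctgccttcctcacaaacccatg
Eya2, strongest distal peak, intron, chr2:165653716-165653865, plus strand: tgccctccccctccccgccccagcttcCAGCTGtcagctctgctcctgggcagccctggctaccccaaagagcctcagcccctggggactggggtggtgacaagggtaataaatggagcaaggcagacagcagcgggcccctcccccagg
Eya2, second distal peak, chr2:165779036-165779185, plus strand: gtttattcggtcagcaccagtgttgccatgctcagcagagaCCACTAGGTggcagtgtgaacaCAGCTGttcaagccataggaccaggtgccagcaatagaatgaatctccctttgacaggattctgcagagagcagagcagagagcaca
Eya2, the third distal peak, chr2:165782456-165782605, plus strand: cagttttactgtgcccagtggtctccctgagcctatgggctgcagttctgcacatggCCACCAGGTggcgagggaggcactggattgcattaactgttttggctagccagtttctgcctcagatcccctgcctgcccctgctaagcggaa
Eya4, strongest distal peak, chr10:23086976-23087125, minus strand: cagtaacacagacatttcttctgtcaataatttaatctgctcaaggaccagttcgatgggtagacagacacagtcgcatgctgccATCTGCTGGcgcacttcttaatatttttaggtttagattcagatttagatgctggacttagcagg
Eya4, second distal peak, intron, chr10:23116936-23117085, minus strand: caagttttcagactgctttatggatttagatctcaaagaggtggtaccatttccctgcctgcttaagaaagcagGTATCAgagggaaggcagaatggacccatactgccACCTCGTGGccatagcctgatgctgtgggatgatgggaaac
A match to these letters is a description and does not show that the factor was bound.

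Promoter peaks ranged widely in strength within each family. Peak strength is the whole-number score that the authors' files give to each peak. Its definition is not stated, and it did not exceed 149 on the nuclear chromosomes. For the 15300 genes with a promoter peak in both replicates, the strongest promoter peak had a median strength of 113.5, averaged over the replicates, with quartiles of 90 and 126.5. Percentiles of promoter strength below are the share of those genes with a lower value.

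Six2, which keeps nephron progenitors of the kidney undifferentiated, had strengths of 129 and 120 in replicates 1 and 2 (124.5 ± 6.36, SD, n = 2), at percentile 70.8. Six4, a factor of muscle precursors, had 120 and 123 (121.5 ± 2.12, SD, n = 2), at percentile 64.2. Six5, which lies beside the myotonic dystrophy kinase gene, had 126 and 127 (SD 0.707, n = 2), although the strongest peak was centred at -483 bp from the TSS in replicate 1 and at -623 bp in replicate 2. These 3 promoters were above the genome median in both replicates. Six3 and Six6, which act in the forming forebrain and eye, were weak. Six3 had 68 and 83 (75.5 ± 10.6, SD, n = 2), and Six6 had 65 and 88 (76.5 ± 16.3, SD, n = 2). Their percentiles were 16.3 and 16.8, and the highest value of either gene lay below the lowest value of Six2, Six4 and Six5.

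Among the Eya genes, Eya3 had the strongest promoter, with 138 and 131 (134.5 ± 4.95, SD, n = 2), at percentile 92.4. Eya1, mutated in human branchio-oto-renal syndrome, had 106 and 115 (110.5 ± 6.36, SD, n = 2), at percentile 45.0. Eya4, a human deafness gene, had 79 and 95 (87 ± 11.3, SD, n = 2), and Eya2 had 63 and 86 (74.5 ± 16.3, SD, n = 2). They stood at percentiles 22.8 and 15.7. The Eya2 peak was centred 799 bp downstream of the 5′-most TSS in both replicates. The peak nearest that TSS scored 41 in replicate 1, at 479 bp downstream, and 54 in replicate 2, at -21 bp. Eya3 and Eya1 did not overlap each other or the weaker pair, whereas the replicate ranges of Eya4 and Eya2 overlapped. In order of mean strength the members ran Eya3, Six5, Six2, Six4, Eya1, Eya4, Six6, Six3 and Eya2. The range of Six2 overlapped those of Six5 and Six4, which did not overlap each other, and those of Eya4, Six6, Six3 and Eya2 overlapped one another.

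**Figure D1:**
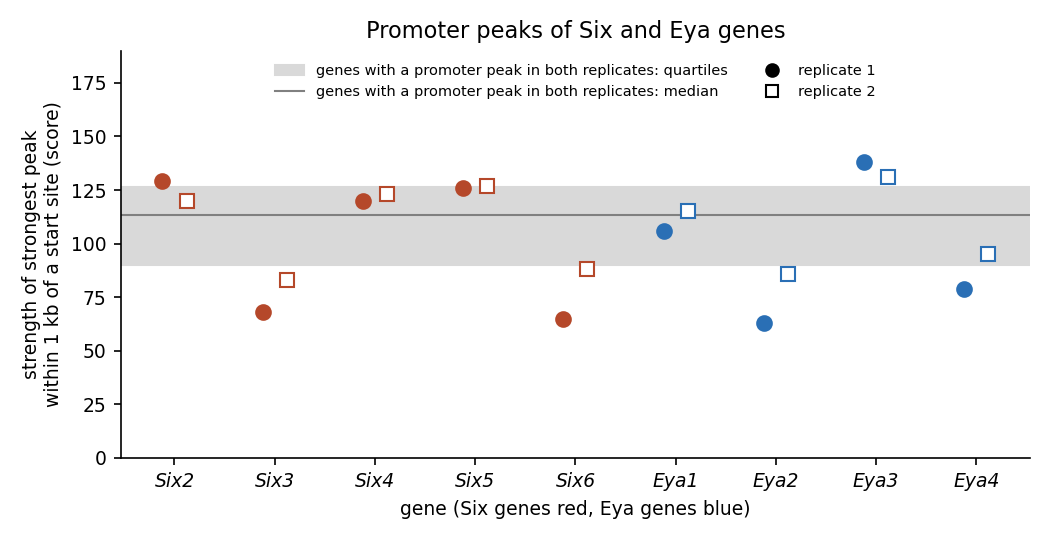
Strength of the strongest peak within 1 kb of a TSS (score) for each gene, with replicate 1 as filled circles and replicate 2 as open squares, sine oculis genes in red and Eya genes in blue. The grey line and band give the median (113.5) and quartiles (90 and 126.5) over 15300 genes: Six2, Six4, Six5 and Eya3 lie above the line in both replicates, and Six3, Six6 and Eya2 lie below the band.

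Genes with several start sites did not have a peak at each of them. At Six3 the peaks common to both replicates stood at the downstream group of start sites (position 85620834 on chromosome 17). Its upstream start site at 85613608 had no peak within 1 kb in replicate 1, and a peak of strength 63 in replicate 2. Eya1 had a further group of coding start sites (14304570 to 14304628 on chromosome 1) with strengths of 61 and 81, and no peak in either replicate at 14231492, inside the gene. Neither replicate had a peak at the inner coding start site of Eya2 (165655298 on chromosome 2) or of Eya4 (23237075 on chromosome 10). The strongest distal peak of Eya2, printed above, lay just before that inner start site, at 165653716 to 165653865, with strengths of 107 and 95. In Eya4 the strongest promoter peak changed place between replicates. It was centred at -45 bp from the 5′-most start site in replicate 1, and 896 bp downstream of another start site in replicate 2.

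The windows of the sine oculis genes were more densely filled with peaks than those of the Eya genes. Because the windows of Six2 and Six3 overlap, as do those of Six4 and Six6, overlapping windows were merged before counting, which left 852 kb in 3 regions for the sine oculis genes and 1452 kb in 4 regions for the Eya genes. The merged sine oculis regions held 186 peaks in replicate 1 and 265 in replicate 2, and the Eya regions held 204 and 228. This is 21.8 and 31.1 peaks per 100 kb for the sine oculis genes and 14.1 and 15.7 for the Eya genes. Shared peaks numbered 147 in the sine oculis regions and 157 in the Eya regions, or 17.2 and 10.8 per 100 kb, a ratio of 1.59. The median over all coding genes was 8.72 shared peaks per 100 kb, with quartiles of 4.86 and 12.7. In both replicates the sine oculis density was the higher, and its lower value, 21.8, exceeded the higher Eya value, 15.7. Single genes overlapped between the families, and no test over genes was made.

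By shared peaks Six5 was the most densely filled window, with 51 and 56 peaks in replicates 1 and 2, of which 44 were shared (21.6 per 100 kb). That places it above 96.5% of coding genes. Six2 had 58 and 97 peaks and 43 shared (21.1 per 100 kb, percentile 96.1), and by all peaks it was the densest in each replicate, with 28.4 and 47.5 per 100 kb. Six3, whose window has most of its peaks in common with that of Six2, had 54 and 95 peaks and 42 shared (19.5 per 100 kb, percentile 94.3). Six4 had 54 and 61 peaks and 41 shared (19.2 per 100 kb, percentile 93.8). Six6 had 32 and 65 peaks and 27 shared (13.2 per 100 kb, percentile 77.1). Of these 27, 7 lay 100 kb or more from its TSS, where its window overlaps that of Six4, so the 2 windows are not independent. Six6 was the sparsest sine oculis gene by shared peaks and in replicate 1, but in replicate 2 its 31.7 peaks per 100 kb exceeded the 28.5 of Six4 and the 27.5 of Six5. Eya2 led the Eya genes with 87 and 88 peaks and 63 shared (16.7 per 100 kb, percentile 89.1). It stood above Six6 by shared peaks and in replicate 1, and below it in replicate 2, where it had 23.4 peaks per 100 kb. Eya1 followed with 46 and 63 peaks and 41 shared (12.0 per 100 kb, percentile 71.6). Eya3 had 36 and 30 peaks and 25 shared (8.75 per 100 kb), at the middle of all coding genes with a percentile of 50.2. Eya4 had 35 and 47 peaks and 28 shared (6.25 per 100 kb), at percentile 33.1.

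**Figure D2:**
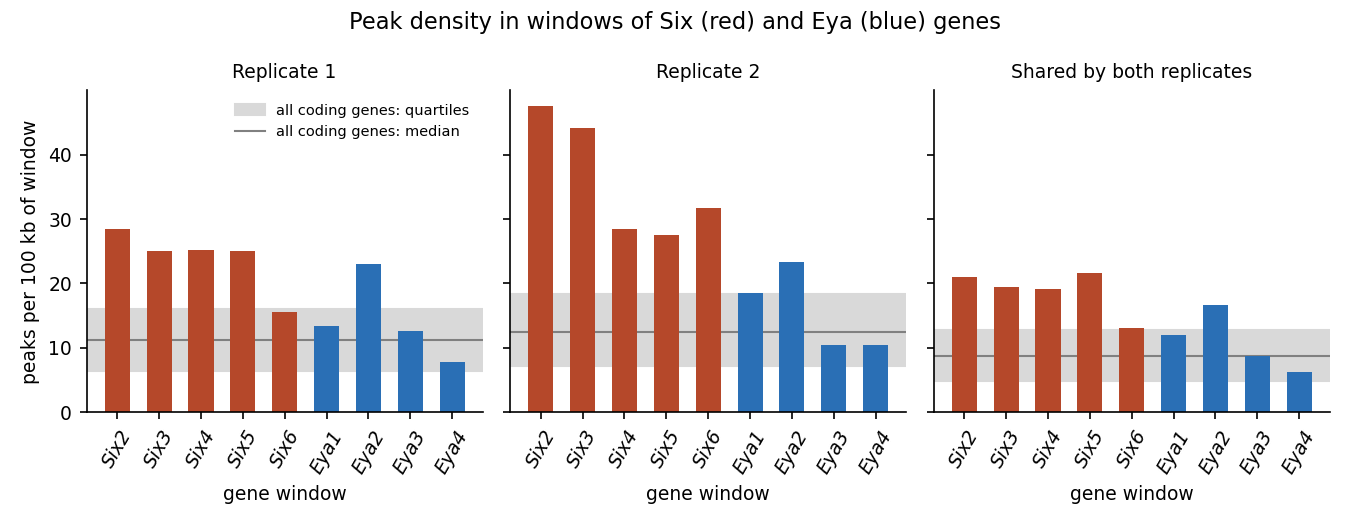
Peaks per 100 kb of gene window (gene body and 100 kb on each side) in replicate 1, in replicate 2 and shared by both, with sine oculis genes in red and Eya genes in blue. The grey line and band give the median and quartiles over all coding genes. Six2 and Six3, whose windows overlap, reach 47.5 and 44.0 peaks per 100 kb in replicate 2, and Eya4 has the fewest shared peaks, 6.25 per 100 kb.

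The families were closer when all promoters were left out. Counting distal peaks alone left 87 in the sine oculis regions and 123 in the Eya regions, or 10.2 and 8.47 per 100 kb, a ratio of 1.20. The Six5 window holds 13 other coding genes, and 25 of its 44 shared peaks lay at promoters of other genes. Distal peaks put it at percentile 79.2 of coding genes. The windows of Eya1 and Eya4 hold no other coding gene. The windows of Six2 and Six3 overlap and have most of their distal shared peaks in common. They held 36 and 35, at percentiles 99.5 and 99.1, and were the densest by this count. Eya2 had 55, at percentile 98.5. Six4 (22 distal peaks) stood at percentile 91.8 and Eya1 (33) at percentile 89.5. Six6 stood at percentile 78.9 with 16, Eya4 at 58.2 with 25, and Eya3 at 34.8 with 10.

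The families differed in where the elements lay. The sine oculis gene bodies are short, 42.5 kb in all, and held 19 shared peaks, whereas the Eya gene bodies cover 652 kb and held 73. In Eya2, 26 of 63 shared peaks were in its own introns, in Eya1 16 of 41, and in Eya4 13 of 28. Eya3 departed from them with 2 of 25, and 11 of its peaks lay at promoters of other genes. In the sine oculis windows own introns held 3 peaks at Six2, 2 at Six4, 1 at Six5 and none at Six3 and Six6. Peaks between genes did not follow the families. They made up 62.8% of the shared peaks at Six2, 61.9% at Six3, 22.0% at Six4, 4.55% at Six5 and 44.4% at Six6, and 34.1% at Eya1, 22.2% at Eya2, 28% at Eya3 and 42.9% at Eya4. Six3 and Six4 were lopsided. The 100 kb upstream of Six3 held 7 shared peaks, against 31 in the 100 kb downstream, which reaches Six2, and at Six4 the numbers were 7 and 29. Of the 41 shared peaks of Six4, 30 lay 50 to 100 kb from its TSS, most of them downstream, where the window holds other genes.

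**Figure D3:**
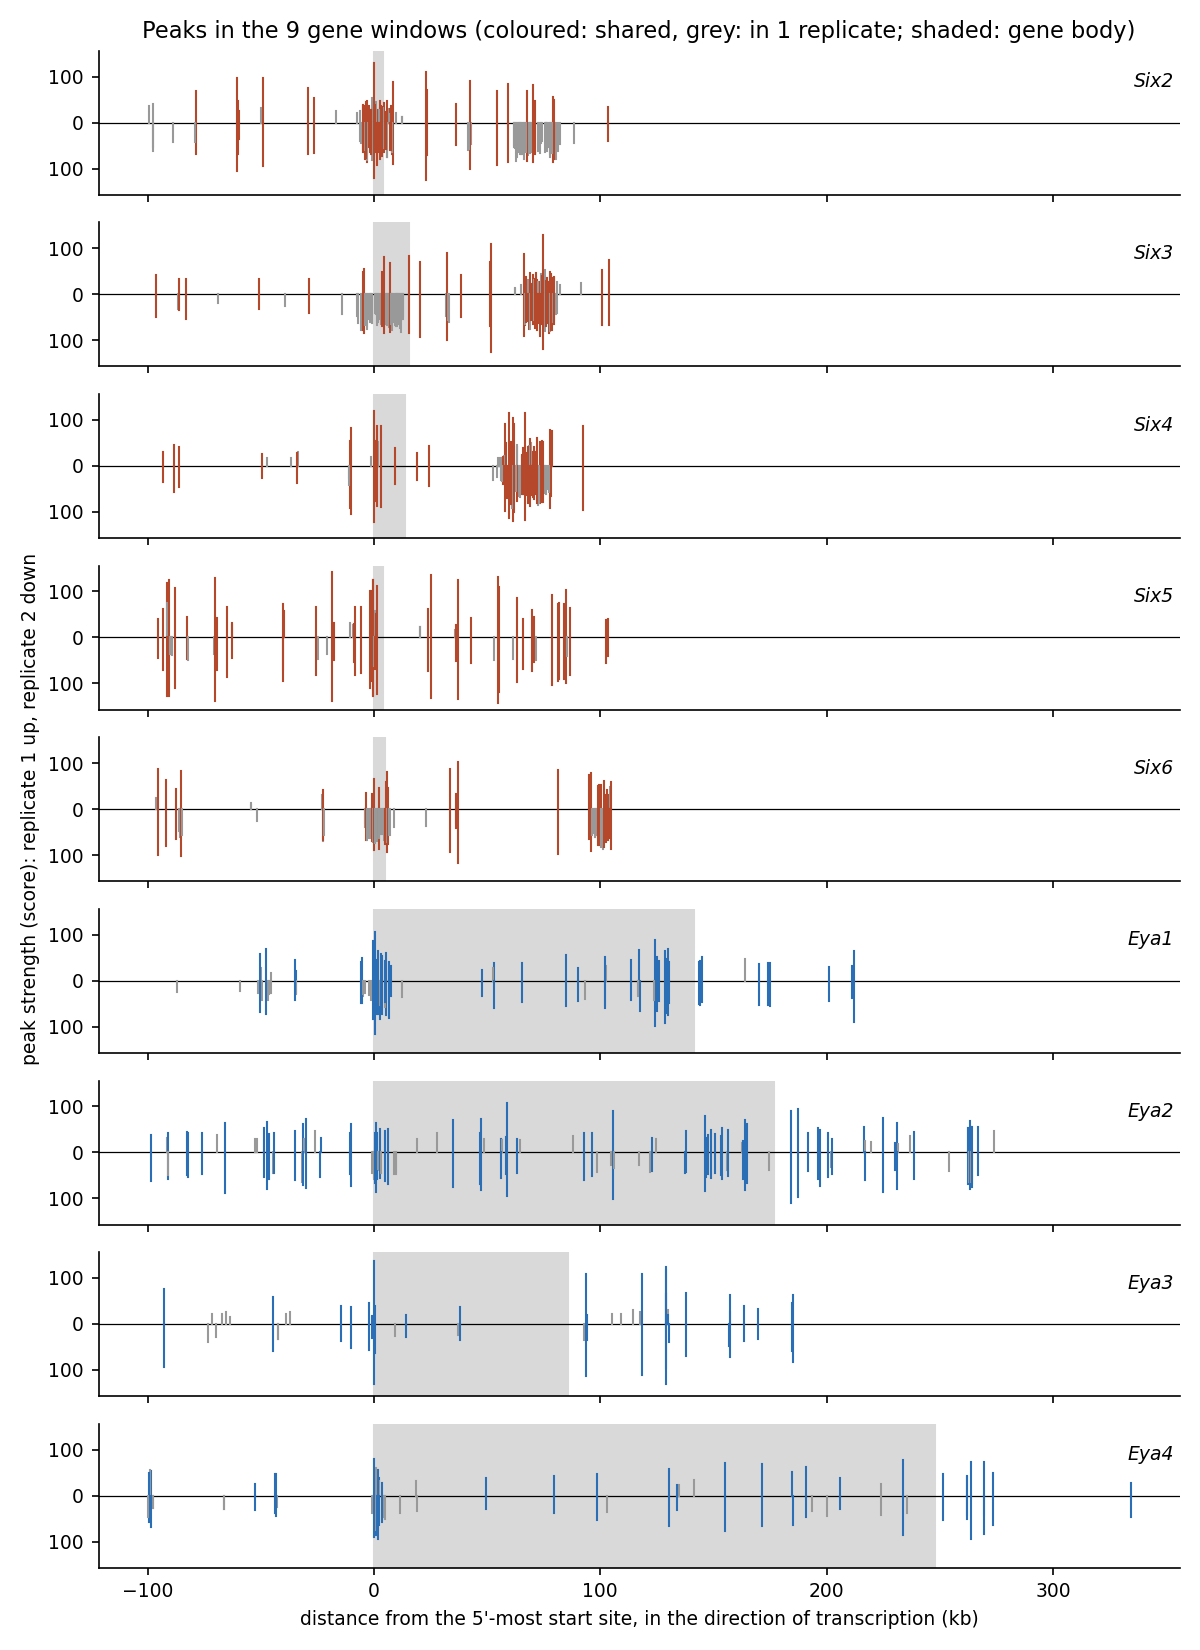
Each panel shows 1 gene window, with distance from the 5′-most TSS in kb in the direction of transcription and peak strength (score) for replicate 1 upward and replicate 2 downward. Coloured lines are peaks shared by both replicates, grey lines are peaks of 1 replicate, and shading is the gene body. The sine oculis genes have short bodies beside dense blocks of peaks, and the peaks of Eya1, Eya2 and Eya4 are spread through long bodies. Grey lines in replicate 2 crowd over Six3 and Six6.

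**Figure D4:**
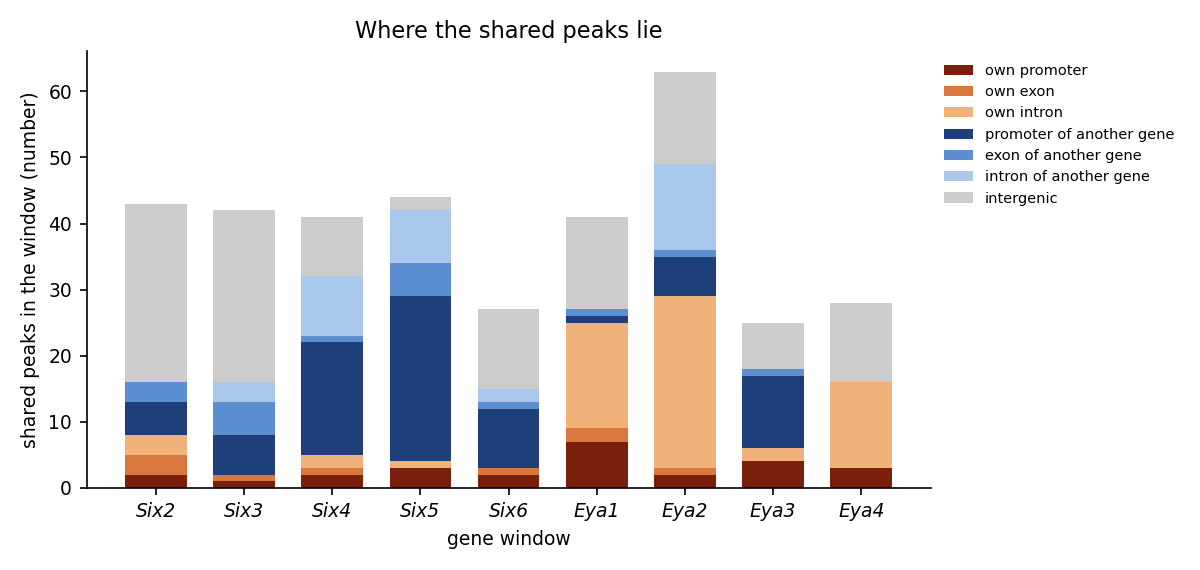
Number of shared peaks in each gene window by place, from the gene's own promoter, exons and introns through those of other genes to intergenic sequence. Own introns hold 26 peaks at Eya2 and 16 at Eya1, and promoters of other genes hold 25 of the 44 peaks at Six5.

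The strongest distal element of the Six2 and Six3 windows was 1 and the same peak, at 85665076 to 85665225 on chromosome 17. It had strengths of 110 and 126 (118 ± 11.3, SD, n = 2) and was stronger than 99.4% of the 111383 distal shared pairs in the genome, whose median was 50. It lay 51543 bp downstream of the 5′-most TSS of Six3 and 23123 bp downstream of that of Six2, so it sits between these genes, which are transcribed towards each other. Its sequence, printed above, holds the CTCF form CCANNAGNT as CCAGCAGGT at position 70, counted from 1 at the 5′ end of the peak. The next peaks of the Six3 window, at 85645856 (90 and 100) and 85679756 (88 and 90), held the form CCNNNAGGG. Of 12 shared peaks between the end of Six3 and Six2, 4 held CCNNNAGGG and 3 held CCANNAGNT, forms found in 13.5% and 13.7% of all distal shared peaks. CCANNAGNT was picked after the printed sequences, which include peaks of this interval, had been seen. Its count here therefore supports nothing, and no test was made on these 12 peaks. On the far side of Six2 the peaks at 85748796 (98 and 105) and 85737316 (98 and 94) were the strongest. The sequence of the peak at 85748796 holds GTATCA, the reverse complement of TGATAC, and neither CTCF form.

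Six5 had its strongest distal peak in its own intron, 1297 bp from the TSS, with strengths of 113 and 122. The strongest at Six6 lay 37019 bp downstream of its TSS, at 72976836 on chromosome 12, with 102 and 117. Eya1 had its strongest, with 89 and 99, in an intron, 124164 bp from the 5′-most TSS. The Eya2 peaks at 165779036 (89 and 110) and 165782456 (94 and 97) lay just beyond the end of the gene, and both held CCANNAGNT. At Eya4 the peaks at 23086976 (73 and 94), beyond the gene's end, and at 23116936 (78 and 86), in its last part, also held it. Eya3 had the weakest leading distal peak of all members, with 64 and 82 at 132824096 on chromosome 4, though its promoter was the strongest. The 3 strongest distal peaks of each member made 26 distinct elements, and 7 of them (26.9%) held CCANNAGNT. The form had been picked from these sequences, so this share supports nothing. Among distal pairs in the strongest 10% of the genome the share was 5 of 25 (20%) in the windows of the members and 19.0% over all such pairs. Over distal shared peaks of any strength it was 10.3% in the sine oculis regions, 13.8% in the Eya regions and 13.7% over the genome.

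Motifs of the sine oculis proteins themselves occurred in few of the distal shared peaks, in the regions of the members and over the genome. TCAGGTTTC, the MEF3 site bound by sine oculis proteins in muscle genes, was found in 0 of 87 distal peaks of the sine oculis regions, which allows a share of up to 3.45%, in 1 of 123 of the Eya regions (0.813%) and in 0.567% of all 113355 distal shared peaks. The 1 peak is shown because it is the only one with this site. Capitals mark the site, which reads on the other strand.
Eya2, peak with the MEF3 letters, chr2:165559936-165560085, plus strand: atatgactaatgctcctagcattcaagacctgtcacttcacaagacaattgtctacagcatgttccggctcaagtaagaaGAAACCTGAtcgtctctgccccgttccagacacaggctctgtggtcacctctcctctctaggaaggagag
It lay between genes at -35021 bp from the Eya2 TSS and had strengths of 47 and 60. TGATAC was found in 2 of 87 sine oculis peaks (2.30%), in 6 of 123 Eya peaks (4.88%) and in 2.84% of all. TCAGNTTTC, a looser form of the MEF3 site, was in 1.15%, 1.63% and 1.70% in the same order, and CAGGTT in 5.75%, 10.6% and 8.26%. CATCTG, an E-box, was in 9.20% of the sine oculis peaks, 20.3% of the Eya peaks and 19.8% of all. ACAAAG, a SOX type of site, was in 14.9% of the sine oculis peaks, 22.8% of the Eya peaks and 16.6% of all. CAGCTG differed little, at 19.5%, 20.3% and 17.2%, and CCNNNAGGG was in 18.4%, 13.0% and 13.5%. These are shares of peaks with at least 1 match on either strand, and 18 motifs were searched. CATCTG and the CTCF forms can overlap.

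Hotspots, the broader regions that the authors called around accessible sites, gave the same order of families. They covered 7.88% and 13.1% of the sine oculis regions in replicates 1 and 2 (10.5 ± 3.72, SD, n = 2), and 3.90% and 5.24% of the Eya regions (4.57 ± 0.947, SD, n = 2). The median coding gene window had 3.46% and 4.66%. Within gene bodies the contrast was larger. Hotspots covered 23.5% and 60.03% of the sine oculis gene bodies, and 4.22% and 5.89% of the Eya gene bodies, which are far longer. At Six2 93.1% and 99.4% of the body was covered, so nearly the whole gene lay in hotspots in each replicate. At Six6 coverage was 2.94% in replicate 1 and 100% in replicate 2, and at Six3 6.20% and 75.9%. Six4 had 23.9% and 21.05%, and Six5 46.9% and 42.8%, so these genes differed little between the replicates.

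The hotspot that held the strongest promoter peak was also compared between replicates. At Six2 it was 2919 bp wide in replicate 1 and 6040 bp in replicate 2, with 5 and 11 peaks in it. At Six6 it was 297 bp with 1 peak in replicate 1, and 9288 bp with 20 peaks in replicate 2. At Six3 it was 275 bp in replicate 1 and 381 bp in replicate 2, with 1 peak in each. Replicate 2 had a separate hotspot of 4071 bp with 8 peaks just upstream of it. Widths were 859 and 2603 bp at Six4, and 4066 and 3268 bp at Six5. At Six4 the replicate 1 hotspot began at 73113050 on chromosome 12, and another of 1638 bp with 3 peaks ended at 73113047. Both lay inside the replicate 2 hotspot, which ran from 73111368 to 73113970. The Eya promoters had hotspots of 1487 and 4708 bp at Eya1, 398 and 1732 bp at Eya2, 1224 and 1686 bp at Eya3, and 1661 and 3099 bp at Eya4. No Eya window had a hotspot of 2 kb or more in replicate 1, and in replicate 2 Eya1 and Eya4 had 1 each.

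**Figure D5:**
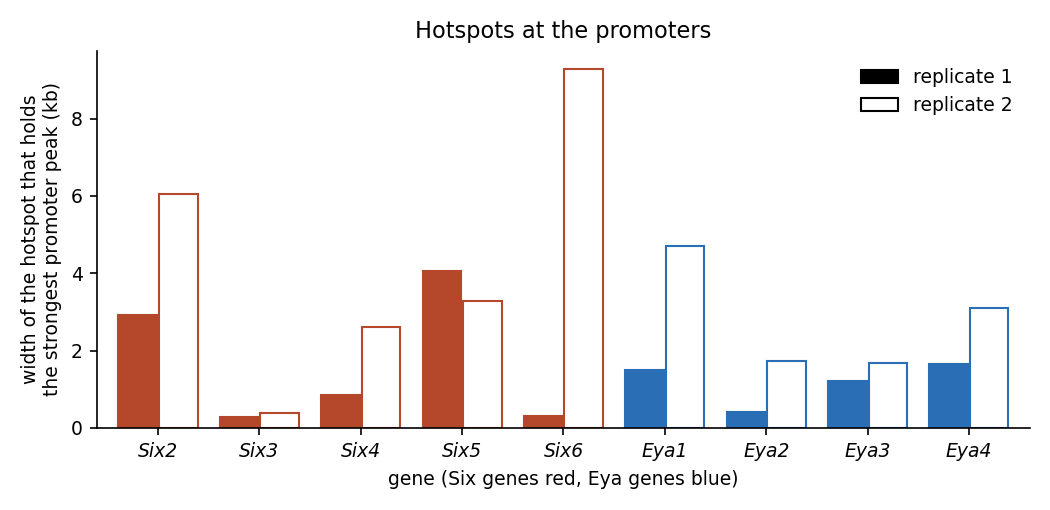
Width in kb of the hotspot that holds the strongest promoter peak, filled bars for replicate 1 and open bars for replicate 2, with sine oculis genes in red and Eya genes in blue. The bar of Six6 reaches 9288 bp in replicate 2 and 297 bp in replicate 1, and Six5 is the single gene with the wider hotspot in replicate 1. The replicate 1 bar of Six4 leaves out an adjoining hotspot of 1638 bp.

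Among the members the replicates differed most in the windows of Six2, Six3 and Six6. The Six2 window takes in the whole of Six3, and many of its unshared replicate 2 peaks lay over and beside Six3. The values of the Six2 and Six3 windows are therefore not independent. Replicate 2 had 1.67 times as many peaks as replicate 1 in the Six2 window, 1.76 times in that of Six3 and 2.03 times in that of Six6. Among 14931 coding gene windows with 20 or more peaks in replicate 1, the median ratio was 1.10, with quartiles of 0.979 and 1.25. The 3 genes stood at percentiles 96.8, 97.7 and 99.0. Such an excess was not particular to them. Among the network and tissue genes described below, Otx2 had 23 and 74 peaks in replicates 1 and 2, Nkx2-5 23 and 77, and Tbx5 26 and 83. Other genes of those lists had no excess, such as Tle1 with 42 and 42 and Nes with 66 and 57. Six4 and Six5 had ratios of 1.13 and 1.10, and the Eya genes lay between 0.833 at Eya3 and 1.37 at Eya1. Of the replicate 2 peaks, 43.3% were shared at Six2, 43.2% at Six3 and 43.1% at Six6, whereas 67.6% of all replicate 2 peaks were. Of the replicate 1 peaks, 79.0% were shared in the sine oculis regions and 77.0% in the Eya regions, beside 74.5% of all replicate 1 peaks.

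The median shared peak scored higher in replicate 2 at all 9 members. The median log2 ratio of strength, replicate 2 over replicate 1, was 0.65 at Six2, 0.69 at Six3, 0.56 at Six6, 0.45 at Six4 and 0.21 at Six5. The median over all paired peaks was 0.26, and the Eya genes lay between 0.21 and 0.31. The 120 replicate 2 peaks of the sine oculis regions with no partner had a median strength of 57, and 35.0% of them lay in a replicate 2 hotspot of 2 kb or more. The 73 such peaks of the Eya regions had a median of 39, with 4.11% in a wide hotspot. Over the genome 74461 such peaks had a median of 36, with 9.20% in a wide hotspot. Peaks with 10 or more CG dinucleotides made up 10% of these unshared peaks in the sine oculis regions, 4.11% in the Eya regions and 3.92% over the genome. Among the shared replicate 2 peaks the shares were 17.9%, 3.87% and 11.6%. Depth and signal quality of the libraries are unknown from the files, and their part in these differences was not tested.

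Most of the strongest unshared peaks lay close to a peak of the other replicate. The strongest of replicate 1 had a strength of 76 in the Six5 window, at the promoter of another gene, and lay 150 bp from a replicate 2 peak of 128. The next, with 61 at the Eya4 promoter, lay 50 bp from a peak of 75. A replicate 2 peak of strength 83 within Six3, at 85625256 on chromosome 17, was different. The nearest replicate 1 peak was 3530 bp away, and the peak did not lie in a replicate 1 hotspot. It was named after its values were seen.

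Of the 41 other genes of the network, 36 (87.8%) had a promoter peak in both replicates, beside 69.7% of all coding genes. The list was chosen with results of these data known. The strongest promoters were those of the corepressor genes Tle3 (135 and 136), Tle4 (132 and 137) and Tle1 (133 and 135). Pax2 (85 and 105) and Pax6 (105 and 128), which act with sine oculis and Eya genes in kidney and eye, and Dach1 (101 and 118) were open too. Among the genes outside the count, Hoxa11 (61) and Myf5 (46) had a promoter peak in replicate 1 alone. Foxe3 (65) and Pou4f3 (62) had one in replicate 2 alone. Foxe3 marks the lens, Pou4f3 hair cells and Myf5 muscle precursors.

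The embryo label was set against promoters of tissue markers. Those of neural tube, heart, somite, limb and kidney lists, 3 genes each, all had a peak in both replicates. Mean strength in these lists ran from 48.5 at Myl7 of the heart list to 126.5 at Nes of the neural tube list. By contrast, 0 of 3 red cell genes and 0 of 3 lens and placode genes had a peak in both replicates. Klf1 of the red cell list had a peak in replicate 1 alone (37). Foxe3 (65) and Crygc (34) of the lens and placode list had one in replicate 2 alone. The 3 genes of later tissues were listed as genes without an open promoter, but 2 of them (66.7%) had a peak in both replicates. These were Cryge with 47 and 47 and Umod with 23 and 26. Cryge is a crystallin gene, as are Cryaa and Crygc of the lens and placode list. The count of 0 in that list therefore depends on which crystallin genes were put in it. Cryge (mean 47) was close to Myl7 of the heart list (mean 48.5). With peaks at most genes of the later tissue list, the lists cannot decide on the embryo label. A weak promoter peak thus does not show that a gene was in use. Among all coding genes the share with a peak in both replicates was 69.7%. With 3 chosen genes per list, no difference between tissues was tested.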

How the data were processed

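DNase-seq was measured on 2 biological replicates of whole embryos. The authors called elements in each replicate alone on mm10, per the labels. Which aligner, caller and thresholds they used is not given in the sources used here. Peaks are 150 bp wide, and each deposited peak carries a whole-number score, here called strength, of unstated definition. The deposited hotspots come with a q-value as −log10, where 100 stands for the smallest, and it served as no filter.

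Repeated peaks and those outside nuclear chromosomes were dropped. Peaks were assigned to windows by their midpoint, and strengths were averaged over peaks that were each other's best overlap. Percentiles give the share of coding gene windows, built alike, with a lower value. Sequences came from RefSeq's GRCm38.p6, the assembly of mm10. Counting was tested on simulated data. Python 3.11.15, NumPy 2.4.6 and matplotlib 3.10.9 were used.

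The members and lists were chosen with earlier results of these data known. The naming rule took all members, the strongest promoter peak of each replicate, the 3 strongest shared distal peaks and the widest hotspots of each, the 2 strongest unshared peaks of each replicate, the 3 strongest genes of the network list and its genes without a promoter peak in both replicates. Some of these items are not reported here. The split of unshared peaks by hotspot width, the cover of gene bodies, the hotspot that holds the strongest promoter peak and the form CCANNAGNT were added after seeing the data. No p-value is given, and the difference between replicates may be technical. Depth is unknown, and limits on a count of 0 cover counting error only. Alternatives were a stricter overlap, the stronger 50% of peaks, distal peaks alone, other window sizes, other TSS windows and each replicate alone.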

Additional observations from a re-analysis of the deposited data

How the results depend on the processing

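The sine oculis genes (Six2 to Six6) stayed above the Eya genes in density, strength and hotspot cover under each alternative tried. With distal peaks only, shared peaks per 100 kb came to 10.2 for the sine oculis genes and 8.47 for the Eya genes, a ratio of 1.20. With the gene body alone the sine oculis genes had 44.7 per 100 kb, the ratio was 3.99 and hotspots covered 41.8% of the sine oculis gene bodies, averaged over the replicates. The stronger 50% of peaks gave 6.27 per 100 kb and a median strength of 65.5 for the Eya genes, and 50 kb flanks gave the Eya genes 12.1 per 100 kb. With each replicate alone, counting all its peaks, the sine oculis density was 21.8 to 31.1, the Eya density 14.1 to 15.7 and the ratio 1.55 to 1.98. Median strength was then 44 to 65 for the sine oculis genes and 42 to 50 for the Eya genes, and the hotspot cover was 7.88% to 13.1% and 3.90% to 5.24%. The count of members with a promoter peak in both replicates was 9 under all TSS windows tried and 8 at the 5′-most TSS alone, where Six3 lacked one in replicate 1. In all, 15 alternative values moved by more than 1 SD of the replicates. Another 34, some of them given above, stayed within 1 SD or within 1.5 times the count. For hotspot cover with each replicate alone this holds by construction, since the value reported is their mean. For density, its ratio and strength the SD was that of all peaks of each replicate, not of shared peaks. The sine oculis density of 11.1 per 100 kb with the stronger 50% of peaks was thus counted as within 1 SD (6.56). No paired analysis was possible because the study has 1 group. With 2 replicates, each SD rests on 1 difference.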
